A study of Homo sapiens with 4 samples.

Results

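The dual specificity phosphatase (DUSP) and Sprouty genes encode feedback inhibitors of MAP kinase signaling, and 10 of them were described on the arrays of Arp5 KO and Arp8 KO cells. These were *DUSP1*, *DUSP2*, *DUSP4*, *DUSP5*, *DUSP6*, *DUSP10*, *SPRY1*, *SPRY2*, *SPRY4* and *SPRED1*, out of 17721 genes that could be named on the array. They were selected on measured values of these same arrays, namely the log2 signal of every probe for a transcript of the gene and whether it was well above background. All values of these genes are therefore a description, and no test was made on them. The 10 genes had 13 probes, with 2 probes each for *DUSP2*, *DUSP10* and *SPRED1*.

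The study examined how Arp5 and Arp8, actin-related subunits of the INO80 chromatin remodeling complex, affect transcription in Nalm-6 cells, an established human pre-B cell leukemia line. There was 1 single-color array for each of 4 genotypes, all without oxidative stress and all on 1 slide. The reference was wild-type Nalm-6, the Arp5 KO and Arp8 KO cells had, per the design text, the respective gene disrupted by homologous recombination, and a further array was labelled Arp8 overexpression (Arp8 OE). By the same text, Arp8 was supplied to Arp8-deficient cells from a Tet-Off construct, an expression system switched off by tetracycline, and the labels do not state the dose or time of any tetracycline. Each genotype is 1 array, so no difference below has a replicate check and no p-value is given. The 3 comparisons with wild-type cells share the wild-type array.

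Signals are the scanner software's processed intensity units, and ratios are log2 ratios after each array was divided by its 75th percentile. Between 30394 and 31420 of 43376 spots were well above background per array. The technical error of a ratio, from probes printed at 5 or more spots, had a median SD of 0.032 where the dimmer signal was 500 units or more. It was 0.062 from 50 to 500 units, 0.18 from 20 to 50 units, 0.25 from 10 to 20 units and 0.50 under 10 units. A difference is called beyond technical error here when it exceeded 2 times that SD, which covers spots within an array and not cultures. The error stated by the scanner software itself is larger, at 10% of the signal for all probes of *DUSP1*, *DUSP2*, *DUSP4*, *DUSP6*, *SPRY1*, *SPRY2* and *SPRED1*, or 0.20 for a log2 ratio of 2 such signals. Within or beyond the software's stated error means 1 such error here and below, while the limit of technical error is 2 SDs. Steps were not set against 2 stated errors, which would be a wider limit. Of the 24 steps between neighbouring arrays that were beyond technical error, over all 13 probes, 8 were smaller than 1 stated error. These were steps of 0.13 for *DUSP1*, 0.16 for the second probe of *DUSP2*, 0.19 for *DUSP4*, 0.18 and 0.12 for *DUSP6*, and 0.15, 0.14 and 0.14 for *SPRED1*.

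The knocked-out genes were read first. *ACTR5*, which encodes Arp5, was at 1909 units in wild-type cells, 65.3 for Arp5 KO, 1849 for Arp8 KO and 2088 for the array labelled Arp8 OE. Arp5 KO over wild-type cells gave a log2 ratio of -4.85, as the label says. *ACTR8*, which encodes Arp8, was at 2149, 2233, 1654 and 1857 units in the same order by its brighter probe, and at 1092, 993, 785 and 679 units by the other. *ACTR8* was thus only slightly lower on the array labelled Arp8 KO, with log2 ratios of -0.40 and -0.49, and was not higher on the array labelled Arp8 OE, with -0.23 and -0.71. Where these probes lie relative to the disrupted part and to the construct was not analysed here. The *ACTR8* values therefore do not show that either label is right, and both arrays, Arp8 KO and Arp8 OE, are called by their labels throughout, also where the text says Arp8 KO cells. *INO80*, the ATPase of the complex, was at 6900, 12004, 14102 and 8070 units, a log2 ratio of 1.01 in Arp8 KO over wild-type cells.

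The labelled cell type was checked against markers. The precursor B cell markers *CD79A*, *CD79B*, *VPREB1*, *IGLL1*, *PAX5*, *EBF1*, *DNTT*, *MME* and *RAG1* were well above background on all 4 arrays, with *IGLL1* the brightest of these at between 136612 and 140829 units by its brightest probe, and between 46232 and 81443 units by its dimmest. They were not level between arrays. *CD79A* was at 18833 units (wild type), 12612 (Arp5 KO), 17443 (Arp8 KO) and 27035 (labelled Arp8 OE), a range of 1.05 on the log2 scale, and the ranges of *VPREB1*, *CD79B* and *DNTT* were 0.75, 0.73 and 0.60. Of T cell markers *CD3D* was not well above background on any array, and *CD3E*, *CD2* and *CD8A* together with it summed to between 190 and 215 units. Of stromal and epithelial markers *COL1A2*, *EPCAM* and *PECAM1* were not well above background, and *KRT18* was at 297, 311, 247 and 175 units. The myeloid markers *CD14*, *LYZ*, *CSF1R* and *MPO* summed to 194 units (wild type), 188 (Arp5 KO), 287 (Arp8 KO) and 282 (labelled Arp8 OE). *LYZ* was at 55.4, 46.3, 143 and 140 units in that order, with log2 ratios over wild-type cells of 1.35 for Arp8 KO and 1.31 for labelled Arp8 OE, and was the brightest of them on both. *CSF1R* was at 11.1 units in wild-type cells, 16.2 for Arp8 KO and 25.3 for labelled Arp8 OE, a log2 ratio of 1.17 for the latter over wild type. *MPO* was not well above background on any array, and the part of this list in the values below was not tested.

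As background, signaling from growth factor or antigen receptors through Ras activates the MAP kinases ERK, JNK and p38 by phosphorylation. DUSPs of the MAP kinase phosphatase (MKP) type remove those phosphates, while Sprouty and SPRED proteins act upstream, on Ras and Raf activation. Many of these genes are themselves induced by ERK or stress signaling, which closes a negative feedback loop, and in pre-B cells such loops limit signaling from the pre-B cell receptor.

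*DUSP1*, a nuclear phosphatase for p38, JNK and ERK and an immediate early gene, gave 12228 units (wild type), 13145 (Arp5 KO), 9118 (Arp8 KO) and 6639 (labelled Arp8 OE). It was highest in Arp5 KO cells and lowest on the array labelled Arp8 OE, and each step in that order was beyond technical error, the first of them within the software's stated error. The log2 ratios over wild-type cells were 0.13, -0.44 and -0.90. *DUSP2*, a nuclear phosphatase abundant in hematopoietic cells, gave 2179, 2674, 2809 and 1882 units in the same order of arrays. Both KO cell lines were above wild-type cells, with log2 ratios of 0.32 and 0.35 that could not be separated from each other, and the array labelled Arp8 OE was below, at -0.23. Its second probe gave 0.39, 0.39 and -0.16.

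*DUSP4*, another nuclear MKP, gave 279, 313, 226 and 223 units. Arp5 KO cells were highest, and the values for Arp8 KO and for the array labelled Arp8 OE did not differ beyond technical error. The log2 ratios over wild-type cells were 0.19, -0.32 and -0.35. *DUSP5*, a nuclear phosphatase specific for ERK, gave 7.72 units in wild-type cells, where it was not well above background, and then 26.6 (Arp5 KO), 27.7 (Arp8 KO) and 34.6 units (labelled Arp8 OE). It was higher than in wild-type cells on each of the other arrays, by at least 3.48-fold, 3.52-fold and 4.39-fold, and those arrays did not differ from one another beyond technical error. The folds set the wild-type array at 7.76 units, the lowest signal of its probes well above background, in place of its own 7.72 units. The software's stated error was 1.80 units in wild-type cells and between 3.11 and 3.90 units on the other arrays.

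*DUSP6*, a cytoplasmic phosphatase specific for ERK, gave 5626, 4904, 2900 and 4657 units. Wild-type cells were highest and Arp8 KO cells lowest, with every step in the order beyond technical error but only the last beyond the software's stated error, and the log2 ratios over wild-type cells were -0.18, -0.97 and -0.30. By the brighter probe of each gene it was the 1 gene among the 8 well above background on all 4 arrays that was lowest in Arp8 KO cells. *DUSP10*, which acts on p38 and JNK, gave 40.1, 27.4, 23.1 and 18.8 units by its brighter probe and 34.3, 23.2, 21.6 and 25.5 units by the other. Wild-type cells were highest by both probes, while the lowest array was that labelled Arp8 OE by the brighter probe and Arp8 KO by the other. The log2 ratios over wild-type cells were -0.53, -0.81 and -1.12 by the brighter probe and -0.54, -0.68 and -0.45 by the other, so the probes disagreed by 0.67 on the array labelled Arp8 OE.

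*SPRY1*, a membrane-associated inhibitor of receptor tyrosine kinase signaling, gave 629 units (wild type), 630 (Arp5 KO), 674 (Arp8 KO) and 278 (labelled Arp8 OE). Neighbouring values among wild-type cells and both KO cell lines did not differ beyond technical error, although Arp8 KO exceeded wild type by 0.08 on the log2 scale, against a limit of 0.063. That difference was within the software's stated error, and fell within the limit with the authors' table (0.061) and with normexp (0.041). The array labelled Arp8 OE stood below wild-type cells and both KO cell lines. Its log2 ratio was -1.20 over wild-type cells, and that of Arp8 KO cells over it was 1.28. *SPRY2*, a second Sprouty, gave 1702, 1412, 1243 and 944 units. The order ran from wild-type to Arp5 KO to Arp8 KO cells to the array labelled Arp8 OE, each step beyond technical error, with log2 ratios over wild-type cells of -0.25, -0.47 and -0.87.

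*SPRY4* was dim, at 16.4 units (wild type), 21.5 (Arp5 KO) and 12.3 (Arp8 KO), and was not well above background on the array labelled Arp8 OE. No neighbouring values in its order differed beyond technical error, but Arp5 KO exceeded Arp8 KO by 0.85 on the log2 scale and the array labelled Arp8 OE by at least 2.50-fold, both beyond it. *SPRED1*, which brings the Ras inhibitor neurofibromin to the membrane, gave 914, 816, 1026 and 708 units by its brighter probe and 258, 280, 312 and 226 units by the other. Arp8 KO cells were highest and the array labelled Arp8 OE lowest by both probes, although by the other probe Arp8 KO exceeded Arp5 KO by 0.117, within the limit of 0.125. In Arp5 KO over wild-type cells the probes differed in sign, at -0.14 and 0.14.

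**Figure D1:**
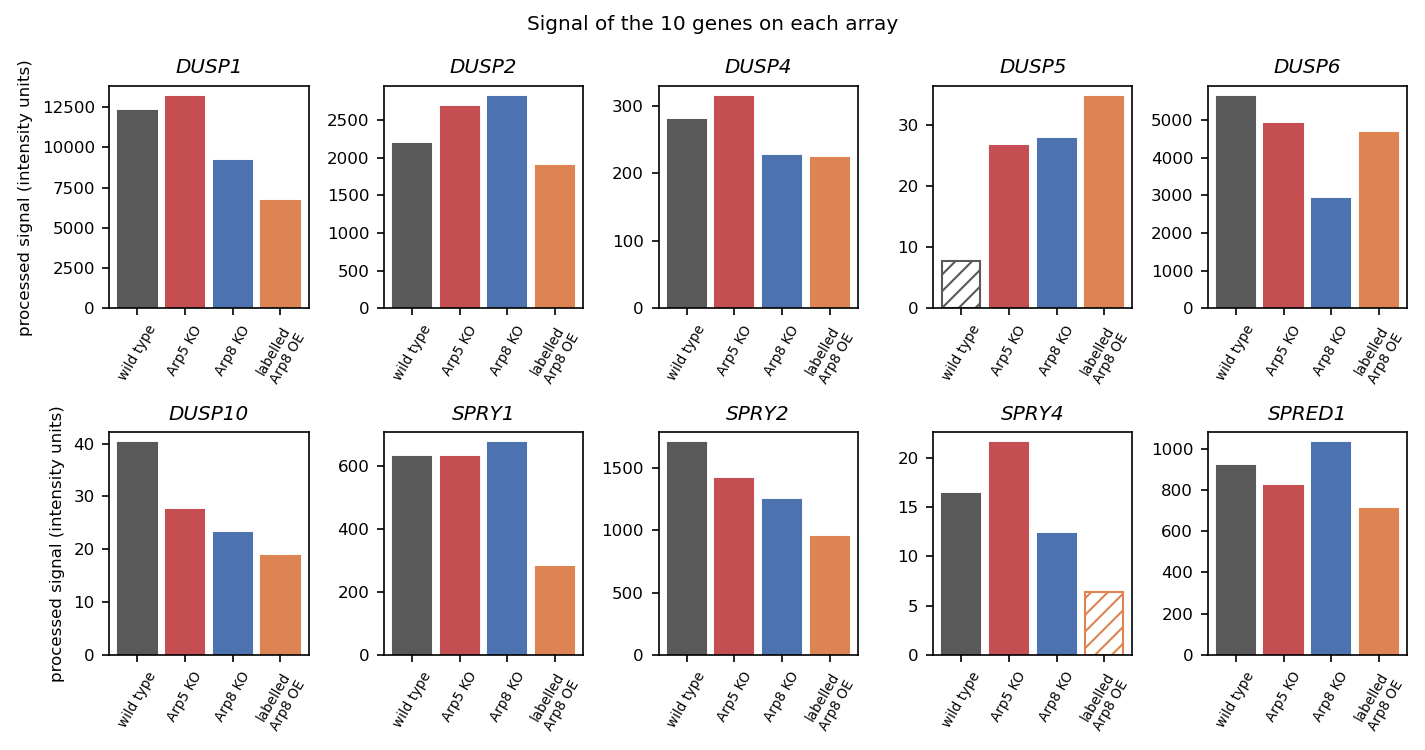
Processed signal in intensity units (bars from 0, 1 array per genotype, each panel with its own scale) of the 10 genes, by the brighter probe where there are 2. Hatched bars are not well above background, and *SPRY1* on the array labelled Arp8 OE stands at 278 units beside 629 to 674 units on the other arrays.

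Counted as a group, 1 of the 10 genes was higher and 0 were lower beyond 2-fold in Arp5 KO over wild-type cells, where 1.16% of 13711 genes were higher and 1.4% lower. In Arp8 KO over wild-type cells 1 gene was higher and 0 were lower, beside 1.82% and 1.93% of 13522 genes. The gene was *DUSP5* both times. On the array labelled Arp8 OE over wild-type cells 1 gene was higher, again *DUSP5*, and 2 were lower, *SPRY1* and *DUSP10*, beside 1.86% and 1.94% of 13634 genes. *DUSP10* was within 2-fold by its other probe (-0.45), by the mean over its probes (-0.79) and with normexp background correction (-0.33), so that 1 gene was lower by the mean over probes, beside 1.89% of all genes, and 1 with normexp, beside 0.956%. With no filter 3 genes were lower, *SPRY4* being added at -1.39, beside 3.14% of 17675 genes. *DUSP5* was not counted as higher with normexp, where 0.366% (Arp5 KO), 0.561% (Arp8 KO) and 0.603% (labelled Arp8 OE) of all genes were higher than in wild-type cells. It was also not among the 8 genes well above background on all 4 arrays, and of the 12963 genes that passed that filter 0.987%, 1.52% and 1.53% were higher. For Arp8 KO over the array labelled Arp8 OE 1 gene was higher, *SPRY1*, and 0 were lower, beside 0.749% and 1.07% of 13479 genes. Beyond 1.5-fold, 2 genes were lower in Arp8 KO over wild-type cells beside 5.79% of all genes, 5 on the array labelled Arp8 OE over wild-type cells beside 5.78%, and 1 for Arp8 KO over that array beside 4.02%. Beyond 3-fold, 0 were lower on that array over wild-type cells beside 0.609%, and 0 higher for Arp8 KO over it beside 0.134%.

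The median log2 ratio of the 10 genes was 0.076 in Arp5 KO over wild-type cells, beside 0.031 over all genes, and -0.059 without *DUSP5* and *SPRY4*, which were not well above background on every array. It was -0.38 in Arp8 KO over wild-type cells, beside 0.034, and -0.63 on the array labelled Arp8 OE over wild-type cells, beside 0.040, and normexp gave -0.15 and -0.33 for these 2. The number of the 10 genes below wild-type cells was 4 for Arp5 KO, 6 for Arp8 KO and 9 for the array labelled Arp8 OE, while 45.3%, 45.1% and 44.3% of all genes were. Of these, 4, 5 and 8 were beyond technical error, with *SPRY4* the gene that was not. The 4 for Arp5 KO included *SPRED1*, at -0.14 by its brighter probe. It was 0.14 by the other probe, also beyond technical error, and -0.00019 by the mean over its probes. For Arp8 KO over the array labelled Arp8 OE the median was 0.43 (0.25 with normexp), beside -0.00079 over all genes, and 8 of the 10 genes were above 0, as were 49.9% of all genes. Of the 8, *DUSP4* at 0.022 became -0.011 under quantile normalization, and *DUSP10* was 0.31 by its brighter probe and -0.23 by the other. *SPRY4*, at 0.48 as a bound, was like these 2 within technical error, and the other 5 were beyond it.

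Among the 8 of the 10 genes well above background on all 4 arrays, 7 were lowest on the array labelled Arp8 OE by the brighter probe (*DUSP10* only by that probe), as were 21.9% of the 12963 genes that passed the same filter. For 5 of the 7 (*DUSP1*, *DUSP2*, *SPRY1*, *SPRY2* and *SPRED1*) the gap to the next array was beyond technical error, and for *DUSP4* and *DUSP10* it was not. With that array in place of wild-type cells as the reference, an alternative added after the data had been seen, 3 of the 10 genes were higher beyond 2-fold in Arp5 KO cells and 0 were lower, beside 2.13% and 2.09% of 13673 genes. These were *DUSP1* at 1.03, *SPRY1* at 1.22 and *SPRY4*, the last as a bound of at least 2.50-fold.

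**Figure D2:**
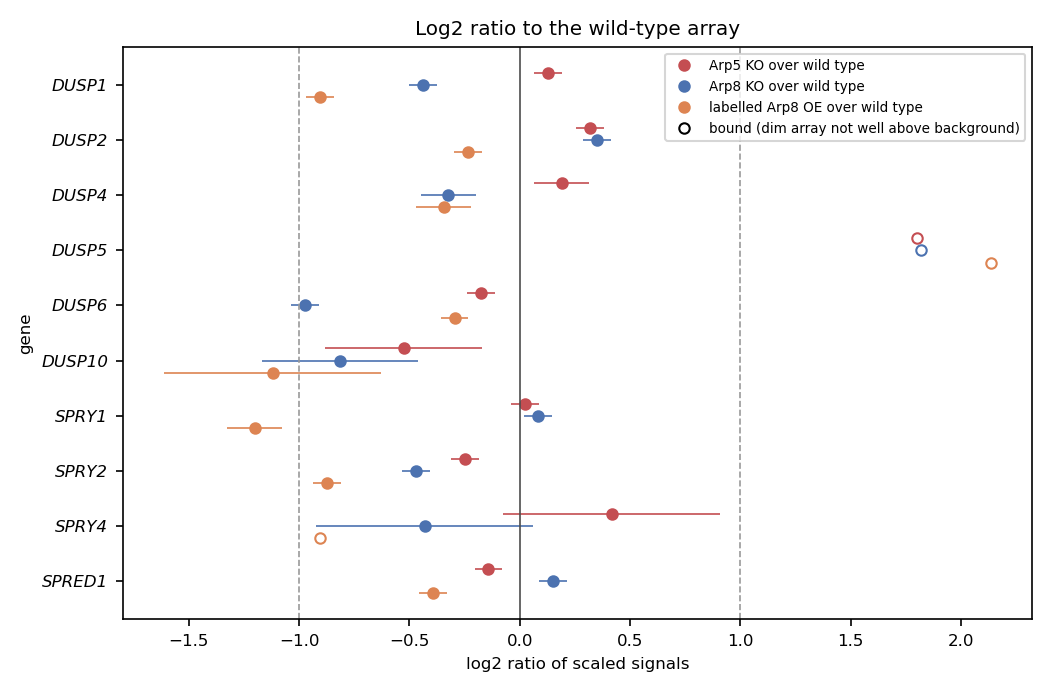
Log2 ratio of scaled signals to the wild-type array (horizontal axis) for each of the 10 genes, with bars of 2 technical SDs and dashed lines at 2-fold. Open points, marked as bounds, have a dimmer signal not well above background and carry no bars. *DUSP5* lies beyond 2-fold in all 3 comparisons, and on the array labelled Arp8 OE the other 9 genes lie below 0.

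The 10 genes were set beside the genes around them in the pathway. Of the other MKP, Sprouty and SPRED genes (6 on the array) 0 were beyond 2-fold in any comparison with wild-type cells. *SPRY3* came closest, at 42.2, 69.8, 80.9 and 70.5 units by its brighter probe, while its other probe was not well above background on any array. Of 9 atypical dual specificity phosphatases with a usable ratio 1 was, *DUSP26*, at 7.88, 10.4, 15.8 and 19.7 units, with a log2 ratio of 1.30 on the array labelled Arp8 OE. None of 17 Ras-ERK core genes, 3 Ras GTPase activating proteins or 12 JNK and p38 core genes was beyond 2-fold. The gene with the largest log2 ratio in each was *ARAF*, a Raf kinase, at -0.59 in Arp8 KO cells, *NF1*, which encodes neurofibromin, at -0.78 in Arp5 KO cells (-0.12 and -0.14 by its other 2 probes, within technical error), and *MAPK11*, a p38 kinase, at 0.89 on the array labelled Arp8 OE.

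Immediate early genes are induced by the same kinases. Of 12 with a usable ratio 6 were higher beyond 2-fold in Arp5 KO over wild-type cells. For Arp8 KO 5 of 11 were, and for the array labelled Arp8 OE 0 of 11. Of all genes 1.16%, 1.82% and 1.86% were higher in that order. In these comparisons 0 of the immediate early genes were lower, beside 1.4%, 1.93% and 1.94% of all genes. The median log2 ratios of the immediate early genes were 1.03, 0.53 and -0.10, beside 0.031, 0.034 and 0.040 over all genes. *EGR1*, a zinc finger transcription factor, gave 85.2, 4249, 280 and 119 units, and *FOS*, an AP-1 subunit, 58.7, 2237, 306 and 111 units. Both were highest in Arp5 KO cells, with log2 ratios of 5.66 and 5.27 over wild-type cells. In the same comparison *DUSP5* was 1.80, from a wild-type signal not well above background. The other 9 of the 10 genes lay between -0.53 (*DUSP10*) and 0.42 (*SPRY4*). *JUN*, *FOSB* and *IER2* had log2 ratios of 3.72, 3.28 and 1.43 in Arp5 KO cells and of 2.90, 1.18 and 0.27 in Arp8 KO cells.

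Of 6 other ERK output genes with a usable ratio, *PHLDA1* was higher in all 3 comparisons with wild-type cells, at 452, 1935, 1405 and 1220 units, as *DUSP5* was. *EPHA4*, a receptor tyrosine kinase, was at 23.0, 28.5, 28.9 and 103 units and higher beyond 2-fold only on the array labelled Arp8 OE, at 2.14. *ETV4*, an ETS transcription factor, was at 41.3 units in wild-type cells and not well above background on the other arrays. For Arp5 KO this was a 5.15-fold decrease, to 7.90 units with a stated error of 1.85 units. The other probe of *ETV4* was also well above background only in wild-type cells. Its range over the arrays was smaller, at 1.04 against 2.71 on the log2 scale. The part of these genes in the values of the 10 genes was not tested.

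**Figure D3:**
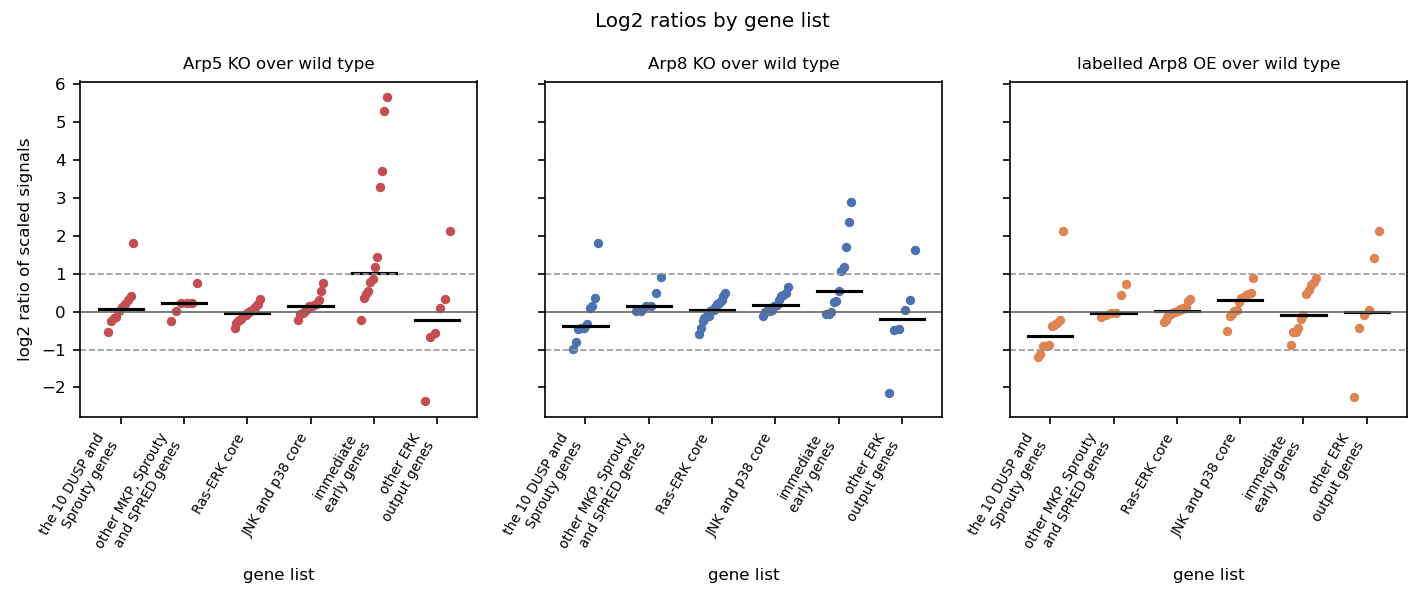
Log2 ratio of scaled signals to the wild-type array (vertical axis) by gene list, with 1 point per gene with a usable ratio, a black line at the median of the list and dashed lines at 2-fold. The median of the immediate early genes was 1.03 in Arp5 KO cells, where that of the 10 genes was 0.076.

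The pattern of *SPRY1*, which had the largest range among the 8 genes well above background on all 4 arrays, was set against those of 12962 other genes. The nearest were *SSH3*, *DIXDC1*, *MYC*, *CREBZF* and *ANKRD34A*, with root mean square differences of 0.077, 0.088, 0.12, 0.13 and 0.15 between centred log2 values over 4 arrays. *MYC* was at 67279, 69410, 71982 and 36255 units. Of the other 7 of these 8 genes *DUSP1* was nearest to *SPRY1*, at 0.30, and 139 other genes were nearer.

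The promoters are shown because *DUSP1* and *EGR1* are both immediate early genes and had different log2 ratios in Arp5 KO cells. RefSeq promoters of 300 bases (250 before and 50 after the start, GRCh38.p14) were found for 8 of the 10 genes, with 12 promoters, and not for *DUSP4* and *DUSP5*. Motifs were searched on both strands. The cyclic AMP response element TGACGTCA was in 1.85% of 35116 promoters and, of the 10 genes, in that of *DUSP1*. The shorter CGTCA, which lies within it, was in 24.6%, and in promoters of *DUSP1*, *DUSP10*, *SPRY2* and *SPRY4*, 4 of their 12 promoters, as well as in 7 of the 12 promoters of the 9 immediate early genes found (*EGR1*, *EGR2*, *FOS*, *FOSB*, *IER2*, *JUN* and *JUNB*). The ETS core CCGGAA was in 17.2%, and in 2 of the 12 promoters of the 10 genes, 1 each of *SPRY1* and *SPRY2*, as in 2 of the 12 immediate early promoters (*FOSB* and *IER2*). The CArG box was in 1.29% and the AP-1 site TGANTCA in 7.71%, and neither was in a promoter of the 8 genes, while *EGR1* had 2 CArG boxes. Within these 300 bases only *EGR1* and *EGR2* of the 9 immediate early genes had a CArG box, and *FOS*, *JUN*, *FOSB* and *IER2* had none. A match is a description of letters and no evidence of binding. The 250 bases before the start follow for *DUSP1* (chr5:172771196-172771445, minus strand, TGACGTCA in capitals) and *EGR1* (chr5:138465229-138465478, plus strand, CArG boxes in capitals).
*DUSP1*: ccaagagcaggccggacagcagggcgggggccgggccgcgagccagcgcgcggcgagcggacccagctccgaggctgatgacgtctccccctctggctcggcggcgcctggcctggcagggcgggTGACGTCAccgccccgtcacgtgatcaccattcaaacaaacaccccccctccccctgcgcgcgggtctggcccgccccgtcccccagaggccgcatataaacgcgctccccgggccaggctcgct
*EGR1*: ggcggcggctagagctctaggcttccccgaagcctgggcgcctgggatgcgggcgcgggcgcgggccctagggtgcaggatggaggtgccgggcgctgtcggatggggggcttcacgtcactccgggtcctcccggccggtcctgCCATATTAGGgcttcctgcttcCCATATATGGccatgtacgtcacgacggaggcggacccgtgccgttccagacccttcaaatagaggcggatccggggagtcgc
For *SPRY1* (chr4:123398292-123398351, plus strand) and *SPRY2* (chr13:80341236-80341295, minus strand), 60 bases around the ETS core are shown, with CCGGAA in capitals. *DUSP1*, *DUSP2*, *SPRED1* and, by its brighter probe, *DUSP10* were like these genes lowest on the array labelled Arp8 OE. They had no CCGGAA in the promoters found. No promoter was found for *DUSP4*, which was also lowest there.
*SPRY1*: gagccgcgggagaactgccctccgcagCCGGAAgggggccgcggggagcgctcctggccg
*SPRY2*: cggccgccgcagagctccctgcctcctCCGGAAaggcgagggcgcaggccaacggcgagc
The start of the core lay 67 bases before the start site in *SPRY1* and 142 bases in *SPRY2*.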

How the data were processed

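The authors deposited the output of Agilent Feature Extraction 10.5.1.1 for each array, and its processed signal is a linear intensity from which the software had subtracted background and spatial trends, array by array. Their value table of intensity, also deposited, equalled that signal multiplied by 1 factor per array (0.847, 0.838, 0.825 and 0.807 in the order wild type, Arp5 KO, Arp8 KO and labelled Arp8 OE; column medians 127, 128, 122 and 119 units), and how the factor was set is unknown. Here the 75th percentile of all non-control spots was subtracted on the log2 scale. Spots marked as outliers were dropped, spots of a probe averaged, and a gene was represented by its brightest probe. Ratios needed the brighter array to be well above background, and a dimmer signal that was not was set to no less than its array's lowest such signal (7.76, 6.90, 9.44 and 8.87 units). No spot was saturated. Probe accessions were named through the RefSeq table of GRCh38.p14, which matched 26222 of 41000 probes. The scanner output names build hg18, so that table gave names only. The members and lists were chosen with earlier results of these data known. Genes named are the 10 members, the markers and the targeted complex, except 1 marker that is not reported here. Of each other list they are the genes beyond 2-fold in at least 1 comparison with wild-type cells (at most 5, by size) or else the 1 gene with the largest log2 ratio. The 5 genes with the nearest pattern to the member of largest range, over genes well above background on all 4 arrays, are named too. Calls were tested on simulated data, which checks the calling step only and not the differences given here. Normexp used the median signal, since the scanner output used here has no mean signal, in limma 3.58.1 (R 4.3.3), where the offset was 50. Other steps used Python 3.11.15, numpy 2.4.6, pandas 2.3.3 and matplotlib 3.10.9.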

Additional observations from a re-analysis of the deposited data

How the results depend on the processing

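No paired analysis was possible because there was only 1 array for each genotype. Single gene log2 ratios kept their sign in 158 of 160 values under the 3 other scalings (quantile, none, percentile over detected probes) and the authors' table, moving by at most 0.108. The exceptions were *SPRY1* in Arp5 KO over wild-type cells (-0.014, authors' table) and *DUSP4* for Arp8 KO over the array labelled Arp8 OE (-0.011, quantile). Requiring all 4 arrays well above background leaves out *DUSP5* and *SPRY4*, so 0 genes were higher in each comparison with wild-type cells, and the Arp5 KO median became -0.059. Normexp, whose offset adds 50 units to every signal and so shrinks dim ratios, also gave 0 higher in all 3, with 1 lower on the array labelled Arp8 OE, and medians of -0.15 (Arp8 KO), -0.33 (labelled Arp8 OE) and 0.25 (Arp8 KO over labelled Arp8 OE). Quantile normalization moved the Arp8 KO median to -0.32, and the authors' table moved that of labelled Arp8 OE to -0.68. The mean over probes gave the latter comparison 1 lower gene and a median of -0.57, with *DUSP10* at -0.79 and *SPRED1* at -0.30, and no filter gave it 3 lower genes, *SPRY4* (-1.39) being added. Of all genes, 1.89% were lower by the mean over probes, 3.14% with no filter and 0.956% with normexp. At 1.5-fold, 2 genes were lower in Arp8 KO (5.79% of all genes) and 5 on the array labelled Arp8 OE (5.78%) over wild-type cells, and 1 for Arp8 KO over that array (4.02%). At 3-fold, 0 were lower on the array labelled Arp8 OE (0.609%), and 0 higher for Arp8 KO over it (0.134%). With the array labelled Arp8 OE as the reference, chosen after seeing the data, Arp5 KO cells had 3 higher genes, a median of 0.57 and *DUSP5* at -0.33. *DUSP6* (0.12), *DUSP10* (0.59), *SPRY2* (0.63) and *SPRED1* (0.25) changed sign too. By their other probes *DUSP10* (-0.090) and *SPRED1* (0.36) kept their sign. Where no construction is named, the cause was not tested. Of the 10 genes, dim signals limit *DUSP5*, *DUSP10* and *SPRY4*.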
